A study of Mus musculus with 6 samples.

Results

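The replication-dependent histone genes of the mouse carry systematic names that begin with Hist1h to Hist4h for the 4 chromosomal clusters. They were followed here in the livers of mice, labelled as newborn, whose mothers ate diets with different oils. Every gene with such a name was taken if the array held a probe annotated to that gene alone. Of 70 genes so named in RefSeq, 31 had a probe of their own, out of 19938 genes with such a probe on the array. Each of the 31 had a single probe of its own, so no choice between probes was needed. A further 38 genes were present only on 27 probes shared between genes, and 1 gene, the pseudogene H2ac14, was on no listed probe. By class, the probes of their own covered 5 of 6 linker histone H1 genes, 5 of 20 H2a genes, 11 of 19 H2b genes, 3 of 12 H3 genes and 7 of 13 H4 genes. By cluster, they covered 23 of 56 genes of the Hist1 cluster on chromosome 13, 4 of 10 of Hist2 on chromosome 3, all 3 of Hist3 on chromosome 11 and the only Hist4 gene, on chromosome 6. H2bu1-ps, a member of Hist3, is annotated as a transcribed pseudogene. The array annotation uses the current symbols (H1f1 for Hist1h1a, H2bc3 for Hist1h2bb), and these are used below with the older name at first mention.

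Chromatin is built of nucleosomes, in which DNA winds around core histones H2A, H2B, H3 and H4, while H1 binds the linker DNA between them. A cell that copies its DNA must also make new histones, and the replication-dependent genes supply them during S phase. Their messages have no introns and end in a stem-loop in place of a poly(A) tail. The stem-loop is bound by SLBP, and the messages are degraded when DNA synthesis stops. The clustered genes of a class encode the same or nearly the same protein. In human cells some of these genes also give polyadenylated messages in cells that no longer divide. The newborn liver still holds dividing hepatocytes and blood-forming cells.

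All livers came from C57Bl6/J offspring, excised within 1 day of birth and frozen, per the labels. The mothers ate isocaloric diets with 6 g% oil, and the fathers shared that diet during mating. The ALA diet held flaxseed oil, with alpha-linolenic acid at 31.6% as its main fatty acid. The SFA diet held coconut oil, with saturated fatty acids at 48.51%. The Control diet held soybean oil, and the labels give oleic acid at 42% for a diet they abbreviate RD. For every diet RNA was pooled from 3 livers, in duplicate, which gives 2 arrays per diet. The labels do not say that the duplicate pools came from separate animals, so the p-values reflect the scatter of these samples alone, and that scatter may be technical.

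Values are log2 signals, and a difference of 1 is a doubling of the signal. Across the 19938 genes, duplicate arrays correlated at r from 0.988 to 0.989 and arrays of different diets at r from 0.966 to 0.981, where genes are not independent replicates. The pools differed in sex-linked signal. Xist, the RNA of the inactive X chromosome, was at 3.76 and 4.24 in ALA pools, 9.46 and 9.51 in SFA pools and 10.67 and 8.34 in Control pools. The Y-linked gene Eif2s3y was at 7.74 and 7.80 in ALA pools, 4.11 and 3.79 in SFA pools and 3.63 and 7.95 in Control pools. Control array 2 thus carried both signals and Control array 1 only that of Xist, and diet cannot be told apart from the sex makeup of the pools. The highest signal of the Y-linked genes Eif2s3y, Uty and Kdm5d on the arrays that lacked them was 4.42, which serves below as a rough mark of no expression. Genes known to change with age in mouse liver were picked after their values were seen. Hsd3b5, Cyp7b1 and Igf2bp3 went against the labelled age in the Control pools, and Afp in all pools. Hsd3b5, a steroid enzyme of the adult male liver, was between 4.14 and 4.87 in ALA pools, between 4.31 and 4.46 in SFA pools and at 4.13 and 10.84 in Control pools. Cyp7b1, an oxysterol hydroxylase that is also highest in adult males, was at 5.50 and 5.46 in ALA pools, 5.39 and 5.68 in SFA pools and 8.35 and 10.98 in Control pools. Igf2bp3, an RNA-binding protein of the fetal liver, was at 6.74 and 6.92 in ALA pools, 7.30 and 6.96 in SFA pools and 4.20 and 4.53 in Control pools. Afp, the main fetal serum protein, which is still abundant in the newborn, was low throughout, at 4.94 and 5.60 in ALA pools, 6.26 and 6.44 in SFA pools and 4.52 and 4.81 in Control pools. Diet thus cannot be told apart from the age of the animals in any difference from Control given here. Nor can it be between ALA and SFA, where Afp differed without overlap. Igf1, picked in the same way, was between 10.71 and 10.97 on all 6 arrays. In pooled tissue, fewer cells of a type and less RNA per cell cannot be told apart.

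**Figure D1:**
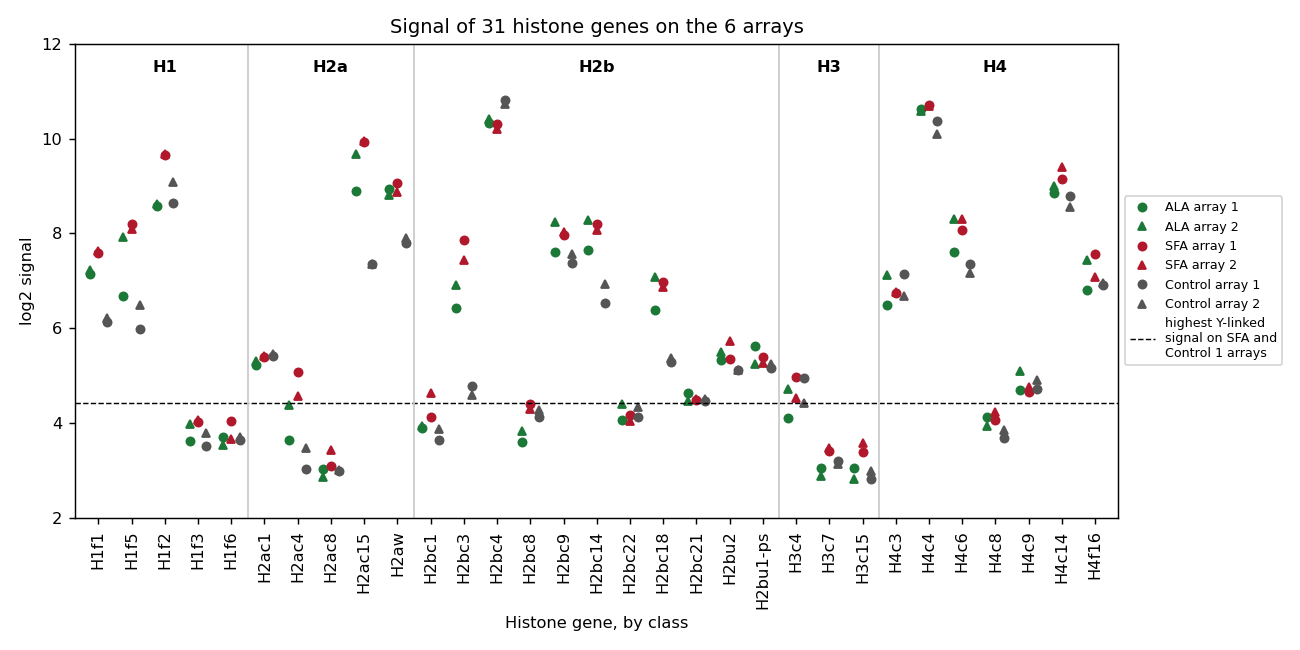
Log2 signal (vertical axis) of the 31 histone genes on each of the 6 arrays, by class, with circles for array 1 and triangles for array 2 of each diet. The dashed line marks 4.42, the highest Y-linked signal on the SFA arrays and Control array 1. The members with the clearest separation, such as H2bc3 and H2ac15, have all 4 ALA and SFA points above both Control points.

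Measured levels differed widely between members. Of the 31 members, 10 had a mean over the 6 arrays at or below 4.42, and 21 lay above it. The brightest were H2bc4, between 10.21 and 10.81 on every array, and H4c4, between 10.09 and 10.71. The dimmest were H2ac8, H3c7 and H3c15, which stayed between 2.81 and 3.58 on every array. Signals of different probes are not on a common scale, so this order describes the probes.

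Promoters show how the classes differ in the sequence that drives them, so the windows that carry class-specific elements were examined. RefSeq windows of assembly GRCm38.p6, running 250 bases before to 50 bases after each start, matched 26 of the 31 members. Fixed strings for 4 motifs were searched on both strands, and no match overlapped a match of another motif in these windows. The octamer ATTTGCAT, the site of Oct-1 in H2B promoters, was present in 5 of 8 H2b and 4 of 5 H2a windows of members. None of the 5 H1, 2 H3 or 6 H4 windows of members held it, and 1.74% of all 32851 promoter windows did. Counting every Hist gene with a window, including those without a probe of their own, 7 of 18 H2a and 7 of 17 H2b windows held it. GGTCCG, the core of the H4 element bound by HINFP, was present in 6 of 6 H4 windows, in 1 of 8 H2b windows (H2bc9) and in 8.25% of all windows. CCAAT was present in 22 of 26 member windows, with 2 of 6 H4 windows holding it, and in 37.4% of all windows. TATAAA was present in 16 of 26 member windows and in 13.6% of all windows. The stretches around the octamer of the 3 H2b genes called below, and around the H4 element of 4 H4 genes, are shown 5′ to 3′ on the gene's strand, with the motif in capitals.
H2bc3 (chr13:23746634-23746683, plus strand): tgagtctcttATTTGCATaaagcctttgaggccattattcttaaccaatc
H2bc14 (chr13:21721984-21722033, plus strand): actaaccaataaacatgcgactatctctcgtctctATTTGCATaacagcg
H2bc18 (chr3:96269620-96269669, plus strand): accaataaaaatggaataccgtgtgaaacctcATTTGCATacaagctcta
H4c3 (chr13:23698489-23698518, minus strand): ctagttttcaaccaGGTCCGcagaaggcct
H4c4 (chr13:23581508-23581537, plus strand): aggttttcaaacaGGTCCGcattggtatta
H4c6 (chr13:23551699-23551728, minus strand): tcagtcctctaaaaGGTCCGcattcgccat
H4c9 (chr13:22041393-22041422, minus strand): tctgttttcactccGGTCCGcaagttccct
The octamer began 90 bases before the start of H2bc3, 25 before that of H2bc14 and 48 before that of H2bc18. The H4 element sat at nearly the same place in the 4 H4 genes shown, 46 bases before the start of H4c3, H4c6 and H4c9 and 47 before that of H4c4. In the other H4 windows of members it began nearer to the start, 32 bases before that of H4f16 and 5 before that of H4c8. In the 4 H2a windows of members that held it, the octamer lay on the opposite strand, 119 to 129 bases before the start. Some H2a and H2b genes stand head to head and share the stretch between them, 180 bases between the starts of H2ac8 and H2bc8 and 281 between those of H2bc1 and H2ac1. A match says only that these letters are in the window.

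A set of H1, H2a and H2b genes with a probe of their own had higher signals in ALA and SFA pools than in Control pools. No histone gene was called lower. Probes shared by H3 genes, given further below, were also called higher. On the ALA diet 6 of 31 members rose at an adjusted p below 0.05 (limma, adjusted over all 19938 genes), where 2.02% of all genes rose. These were H1f1, H2ac15, H2aw, H2bc3, H2bc14 and H2bc18. On the SFA diet 9 of 31 rose, the same 6 and H1f5, H1f2 and H2ac4, where 3.15% of all genes rose. At an unadjusted p below 0.05, 10 members were higher and 2 lower on ALA, where 8.42% of all genes were higher and 7.55% lower. On SFA 17 were higher and 1 lower, where 11.7% of all genes were higher and 12.5% lower. The median difference over the 31 members was 0.20 for ALA minus Control, beside -0.02 over all genes, and 0.42 for SFA minus Control, beside -0.01 over all genes. Both comparisons use the same 2 Control arrays, so their agreement is not independent.

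The counts depended on single arrays. For ALA, the 6 calls came to 2 without ALA array 2, 2 without Control array 1 and 1 without Control array 2, when H2bc3 alone passed. For SFA, the 9 calls came to 5 without SFA array 1 and 4 without either Control array. H2bc3 on ALA, and H1f1, H2ac15, H2aw and H2bc3 on SFA, passed in each of the 6 fits that left out an array. Without Control array 2, the Control array that carried Y-linked signal, the median difference was 0.22 for ALA and 0.45 for SFA.

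Counted without a test, both ALA arrays lay above both Control arrays for 16 members, and 22.3% of all genes did so. Both SFA arrays lay above both Control arrays for 23 of the 31 members, and 26.8% of all genes did so. Both arrays of the diet lay below both Control arrays for 5 members on ALA, where 25.2% of all genes did so, and for 1 on SFA, where 29.0% did. By the F test across the 3 diets, 9 of 31 members differed, where 5.25% of all genes did. The 9 members of the F test were those called on SFA.

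**Figure D2:**
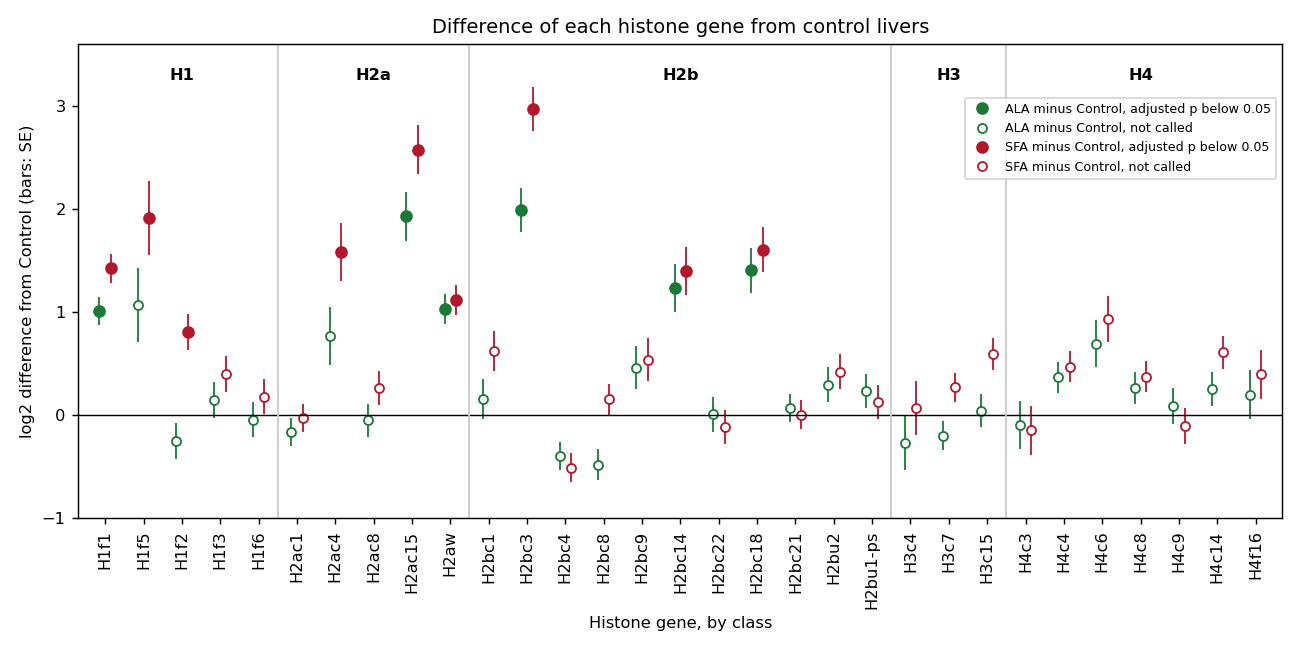
Log2 difference of each histone gene from Control for ALA and SFA, with bars of 1 SE, and filled points for genes with an adjusted p below 0.05. H2bc3 lies highest, at 1.99 for ALA and 2.97 for SFA, and no filled point lies among the H3 and H4 genes.

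Among the linker histones, which bind the DNA between nucleosomes and compact it, 1 of 5 genes rose on ALA and 3 of 5 on SFA. H1f1 (Hist1h1a) was at 7.15 and 7.22 in ALA pools, 7.58 and 7.62 in SFA pools and 6.13 and 6.22 in Control pools. All ALA and SFA arrays lay above both Control arrays, and duplicates differed by 0.09 at most. H1f1 rose by 1.00 (SE 0.14, adjusted p = 0.0101, n = 2 arrays per group, limma) on ALA and by 1.42 (SE 0.14, adjusted p = 0.00237) on SFA. The ALA call was lost on leaving out either ALA array or either Control array, with adjusted p between 0.0533 and 0.0683 and the difference between 0.96 and 1.05.

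H1f5 (Hist1h1b) was at 6.67 and 7.93 in ALA pools, 8.21 and 8.09 in SFA pools and 5.98 and 6.49 in Control pools. The ALA duplicates were 1.25 apart, with the lower of them 0.18 above the higher Control array. H1f5 rose by 1.91 (SE 0.36, adjusted p = 0.0235) on SFA, and the ALA difference of 1.06 did not pass (adjusted p = 0.186). Without ALA array 1 the ALA difference was 1.69 and passed (adjusted p = 0.0463), and the SFA call was lost without either SFA or either Control array (adjusted p 0.0691 to 0.133).

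H1f2 (Hist1h1c), the brightest of the class, had a different order from H1f1 and H1f5. It was at 8.59 and 8.63 in ALA pools, 9.65 and 9.69 in SFA pools and 8.64 and 9.09 in Control pools. Only the SFA arrays stood above Control, while both ALA arrays lay below it. H1f2 rose by 0.80 (SE 0.17, adjusted p = 0.0367) on SFA, whereas ALA minus Control was -0.26 (adjusted p = 0.556). The SFA call was lost in each of the 6 fits that left out an array, with adjusted p between 0.0587 and 0.166. H1f3 (Hist1h1d) and the testis linker histone H1f6 (Hist1h1t) were at or below 4.07 on every array, under 4.42.

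Of the H2a genes, 2 of 5 rose on ALA and 3 of 5 on SFA. H2ac15 (Hist1h2ak) was at 8.89 and 9.69 in ALA pools, 9.92 and 9.95 in SFA pools and 7.36 and 7.37 in Control pools. Every ALA and SFA array was at least 1.53 above both Control arrays on the log2 scale. H2ac15 rose by 1.93 (SE 0.24, adjusted p = 0.00703), a 3.80-fold higher signal, on ALA and by 2.57 (SE 0.24, adjusted p = 0.00234), a 5.95-fold higher signal, on SFA. Without Control array 2 the ALA difference stayed at 1.93 and its adjusted p was 0.0643.

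H2aw (Hist3h2a), the H2A gene of the small Hist3 cluster, was at 8.93 and 8.81 in ALA pools, 9.06 and 8.88 in SFA pools and 7.79 and 7.91 in Control pools. The ALA and SFA arrays overlapped each other and stood clear of Control. H2aw rose by 1.02 (SE 0.15, adjusted p = 0.0111) on ALA and by 1.12 (SE 0.15, adjusted p = 0.00653) on SFA. The ALA call was lost without either ALA or either Control array (adjusted p 0.0607 to 0.0789). A second probe that lists both H2aw and Trim17 did not show the difference, with 5.11 and 5.21 in ALA pools, 5.24 and 5.03 in SFA pools and 5.24 and 5.17 in Control pools.

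H2ac4 (Hist1h2ab) was dim, at 3.64 and 4.37 in ALA pools, 5.07 and 4.57 in SFA pools and 3.02 and 3.46 in Control pools. Only the SFA arrays passed 4.42. The fitted SFA difference of 1.58 (SE 0.28, adjusted p = 0.0184) is set against Control arrays under that mark. With the mark in place of the Control values, H2ac4 was at least 1.32-fold higher on SFA. The ALA difference of 0.76 did not pass (adjusted p = 0.221). The SFA call was lost without SFA array 1 or either Control array (adjusted p 0.0722 to 0.110). H2ac1 (Hist1h2aa), a testis H2A, was between 5.22 and 5.45 on every array, and H2ac8 (Hist1h2ae) between 2.86 and 3.42.

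Of the 11 H2b genes, 3 rose on both diets, and all 3 carry the octamer shown above. H2bc3 (Hist1h2bb) was at 6.43 and 6.91 in ALA pools, 7.86 and 7.44 in SFA pools and 4.79 and 4.59 in Control pools. The 3 diets did not overlap, with SFA highest and Control lowest. H2bc3 rose by 1.99 (SE 0.21, adjusted p = 0.00447), 3.96-fold, on ALA and by 2.97 (SE 0.21, adjusted p = 0.000804), 7.83-fold, on SFA, which were the largest differences among the 31 members on either diet.

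H2bc18 (Hist2h2bb), of the Hist2 cluster, was at 6.38 and 7.08 in ALA pools, 6.98 and 6.88 in SFA pools and 5.29 and 5.37 in Control pools. H2bc14 (Hist1h2bm) was at 7.65 and 8.29 in ALA pools, 8.19 and 8.07 in SFA pools and 6.54 and 6.94 in Control pools. For both genes the ALA and SFA arrays overlapped each other and lay above Control. H2bc18 rose by 1.40 (SE 0.22, adjusted p = 0.0156) on ALA and by 1.60 (SE 0.22, adjusted p = 0.00785) on SFA. H2bc14 rose by 1.23 (SE 0.23, adjusted p = 0.0329) on ALA and by 1.40 (SE 0.23, adjusted p = 0.0151) on SFA. The ALA calls of H2bc18 and H2bc14 were lost without ALA array 2 or either Control array (adjusted p 0.0567 to 0.175). On SFA both calls were lost without either Control array, and that of H2bc14 also without SFA array 1 (adjusted p 0.0511 to 0.0922).

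H2bc4 (Hist1h2bc), the brightest H2b gene, ran the other way. It was at 10.32 and 10.42 in ALA pools, 10.31 and 10.21 in SFA pools and 10.81 and 10.73 in Control pools. All 4 ALA and SFA arrays lay below both Control arrays. The differences were -0.40 (SE 0.14, adjusted p = 0.195) for ALA and -0.51 (SE 0.14, adjusted p = 0.0691) for SFA, and neither passed. With the SFA test restricted to genes with a mean signal of at least 5, the same difference passed (adjusted p = 0.0375). The human gene of the same name, HIST1H2BC, is among those known to make polyadenylated messages outside S phase. Whether the labelling here favoured polyadenylated RNA is not given in the sources used here, and its part in the H2bc4 difference was not tested.

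The other H2b genes did not pass on either diet. H2bc9 (Hist1h2bh) was at 7.61 and 8.23 in ALA pools, 7.98 and 8.02 in SFA pools and 7.37 and 7.56 in Control pools, so that both diets lay above Control by a small margin. H2bc8 (Hist1h2bg) was at 3.61 and 3.82 in ALA pools, 4.40 and 4.30 in SFA pools and 4.13 and 4.27 in Control pools, all below 4.42. H2bu2 (Hist3h2ba) was between 5.12 and 5.73, and the pseudogene H2bu1-ps (Hist3h2bb) between 5.17 and 5.62. H2bc21 (Hist2h2be) stayed between 4.47 and 4.63, H2bc22 (Hist1h2bp) between 4.04 and 4.39, and the testis gene H2bc1 (Hist1h2ba) between 3.63 and 4.63.

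Counted over the 26 members with a promoter window, 5 of 9 with the octamer and 4 of 17 without it were called on SFA. Within the H2b genes these were 3 of 5 with it and 0 of 3 without it. Within the H2a genes they were 2 of 4 with it and 1 of 1 without it. These are descriptions of few genes, with no test. The octamer of H2ac8 and that of H2bc8 are the same site read on opposite strands, as are those of H2ac1 and H2bc1. Among these uncalled genes, H2ac8 and H2bc8 stayed under 4.42 on every array and H2bc1 on all but SFA array 2, while H2ac1 lay above it throughout.

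No H3 or H4 gene with a probe of its own was called on either diet in the fit used throughout, while 3 H4 genes passed on SFA under some other settings. For the 7 H4 genes, the median difference was 0.25 on ALA and 0.39 on SFA. H4c4 (Hist1h4d), the brightest, was at 10.62 and 10.58 in ALA pools, 10.71 and 10.69 in SFA pools and 10.38 and 10.09 in Control pools. Both diets lay above Control without overlap, and the differences of 0.36 (adjusted p = 0.284) and 0.47 (adjusted p = 0.110) did not pass. On SFA it passed in 3 of 17 alternatives, with adjusted p of 0.0348 to 0.0497.

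H4c6 (Hist1h4f) was closest to the threshold among the H4 genes, at 7.61 and 8.30 in ALA pools, 8.08 and 8.31 in SFA pools and 7.36 and 7.17 in Control pools. Its difference was 0.69 (adjusted p = 0.173) for ALA and 0.93 (adjusted p = 0.0525) for SFA. The SFA difference passed in 8 of 17 alternatives, among them a signal minimum of 5 (adjusted p = 0.0413), a fit to the SFA and Control arrays alone (adjusted p = 0.0332) and the fits without either ALA array. H4c14 (Hist2h4) was at 8.85 and 8.99 in ALA pools, 9.15 and 9.40 in SFA pools and 8.79 and 8.56 in Control pools, with an SFA difference of 0.61 (adjusted p = 0.0669). It passed in 5 of 17 alternatives, among them a signal minimum of 5 (adjusted p = 0.0421). H4c3 (Hist1h4c), which shares the placement of the H4 element with H4c4 and H4c6, overlapped in all 3 diets, at 6.50 and 7.13 in ALA pools, 6.75 and 6.77 in SFA pools and 7.15 and 6.67 in Control pools. H4f16 (Hist4h4) was between 6.80 and 7.56, H4c9 (Hist1h4i) between 4.65 and 5.09, and H4c8 (Hist1h4h) between 3.69 and 4.23.

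The 3 H3 genes with a probe of their own gave little signal. H3c4 (Hist1h3d), the brightest, was at 4.10 and 4.71 in ALA pools, 4.97 and 4.53 in SFA pools and 4.94 and 4.43 in Control pools, with all 3 diets overlapping. H3c7 (Hist1h3f) and H3c15 (Hist2h3c2) stayed at or below 3.58. H3c15, under 4.42 on every array, passed on SFA with 75th percentile or median centring (adjusted p 0.0478 and 0.0275). The 3 genes thus carry little information on the H3 class, whose messages are nearly identical in sequence and were mostly read by shared probes.

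The 27 probes annotated to several genes were tested by adding them to the gene table, and they measure a family and not a gene. All 10 probes that list the same 12 H3 genes were called higher on both diets, where 2.16% of the 19965 genes and probes were called higher on ALA and 3.33% on SFA. Their median signal was 10.31 and 10.92 in ALA pools, 10.94 and 10.91 in SFA pools and 9.20 and 8.86 in Control pools. Every ALA and SFA array lay above both Control arrays. The 10 differences lay between 1.46 and 1.61 (adjusted p 0.00747 to 0.0112) on ALA and between 1.76 and 1.90 (adjusted p 0.00385 to 0.00491) on SFA. Since the 10 probes list the same genes, they are close to a single measurement. On ALA, 4 of the 10 were called without ALA array 2 and 0 without Control array 2 (adjusted p 0.0718 to 0.101), and all 10 without any other array. On SFA, 9 of the 10 were called without Control array 2 and all 10 without any other array.

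All 7 probes shared by 14 or 15 H2b genes were also called higher on both diets, by 0.96 to 1.12 (adjusted p 0.0214 to 0.0480) on ALA and by 0.99 to 1.16 (adjusted p 0.0135 to 0.0251) on SFA. Their median signal was 9.93 and 10.41 in ALA pools, 10.25 and 10.16 in SFA pools and 9.24 and 8.92 in Control pools. The 7 hold 6 distinct rows of values. Both probes shared by 19 or 20 genes, mostly H2a, were called higher, by 0.83 and 0.93 on ALA and 1.21 and 1.22 on SFA. Both families lost calls when single arrays were left out. On ALA, 0 of the 7 H2b probes and 0 of the 2 H2a probes were called without ALA array 2, Control array 1 or Control array 2, and 1 of the 2 H2a probes was called without ALA array 1 or either SFA array. On SFA, 0 of the 2 H2a probes were called without either Control array (adjusted p 0.0504 to 0.0620). Of the 7 H2b probes on SFA, 1 was called without Control array 1 or SFA array 2 and 0 without Control array 2 or SFA array 1. Every one of these probes kept a positive difference in all 6 fits that left out an array.

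The 5 family probes that list 11 H4 genes, with 4 distinct rows of values, had a median signal of 10.57 and 10.77 in ALA pools, 10.92 and 10.99 in SFA pools and 10.82 and 10.46 in Control pools. None was called, with differences of 0.03 to 0.25 on ALA (adjusted p 0.492 to 0.970) and 0.26 to 0.56 on SFA (adjusted p 0.0721 to 0.384). The probe shared by H4c17 and H4c11 only was at 4.89 and 4.32 in ALA pools, 4.63 and 5.32 in SFA pools and 3.76 and 3.55 in Control pools. It was called on SFA, with a fitted difference of 1.32 (SE 0.26, adjusted p = 0.0267). Both Control values lie under 4.42, and with that mark in their place it was at least 1.47-fold higher. It was not called on ALA, at 0.95 (adjusted p = 0.108). The probe that lists H1f4 and H2bc6 was not called on either diet.

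When all 35556 probes were tested together, fewer calls were made in general. The share of probes called higher was 0.0787% on ALA and 1.01% on SFA. No shared histone probe was then called on ALA, where the 10 H3 probes had adjusted p between 0.0737 and 0.0860. On SFA the 10 H3 probes and the 2 H2a probes passed, and the 7 H2b probes did not (adjusted p 0.0512 to 0.0741). Of the 31 members, 0 were called on ALA and 5 on SFA in that fit.

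**Figure D3:**
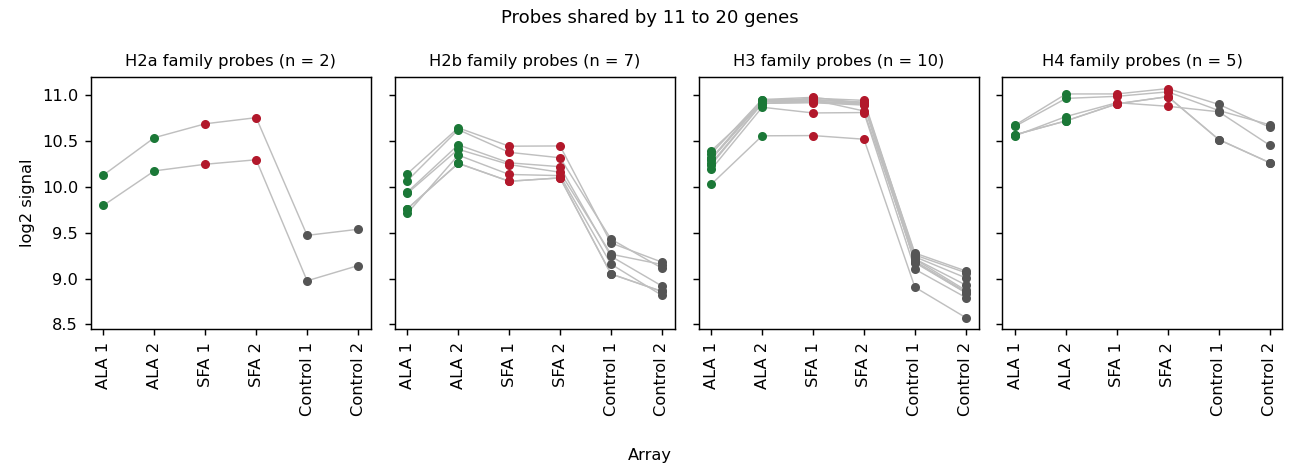
Log2 signal of the probes shared by at least 11 genes on each array, with a panel per histone family and a grey line joining the values of a probe. In the H2a, H2b and H3 panels the ALA and SFA arrays lie above both Control arrays, with median differences of 1.56 on ALA and 1.85 on SFA for H3. No probe of the H4 panel was called.

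Between the ALA and SFA diets no member was called (limma), where 0.16% of all genes were, and at an unadjusted p below 0.05 0 members were higher and 10 lower on ALA, where 8.87% of all genes were higher and 8.20% lower. The median of ALA minus SFA was -0.22 over the 31 members and -0.01 over all genes, and without ALA array 2 it was -0.43 over the members. Both ALA arrays lay below both SFA arrays for 15 members, where 24.1% of all genes did so, and above them for 1 member, H2bc4, where 24.3% did. The difference closest to the threshold was that of H1f2, at -1.06 (SE 0.17, adjusted p = 0.0627), followed by H2bc3 at -0.98 (SE 0.21, adjusted p = 0.0972). With genes of a mean signal under 5 left out, H1f2 passed (adjusted p = 0.0409). That ALA and SFA differed in no called gene does not show that they act alike on histone genes. The 2 ALA arrays differed from each other in several members, with array 2 above array 1 by 1.25 for H1f5, 0.79 for H2ac15 and 0.70 for H2bc18.

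In a list of 18 measured genes for histone transcription and message processing, 1 was called higher on each diet and none lower. Among all genes, 2.02% were called higher on ALA and 3.15% on SFA. The medians of the list were 0.01 on ALA and 0.18 on SFA. The called gene was Ccne2, a cyclin E that drives entry into S phase, at 5.11 and 5.40 in ALA pools, 5.90 and 5.90 in SFA pools and 4.55 and 3.91 in Control pools. It rose by 1.03 (SE 0.22, adjusted p = 0.0492) on ALA and by 1.67 (SE 0.22, adjusted p = 0.00653) on SFA. The ALA call did not hold with replicate number as a block (adjusted p = 0.0656), nor on leaving out any array but Control array 1 (adjusted p 0.0644 to 0.266). Slbp, whose protein binds the stem-loop, was at 6.13 and 6.54 in ALA pools, 7.40 and 6.91 in SFA pools and 6.75 and 6.33 in Control pools. The Slbp differences of -0.20 on ALA and 0.62 on SFA did not pass (adjusted p 0.771 and 0.154). Npat, the coactivator of histone transcription, differed by -0.06 on ALA and 0.44 on SFA and did not pass (adjusted p 0.911 and 0.123).

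Histone genes that are expressed outside S phase as well showed a single call. Of 10 measured replication-independent histone genes, 0 rose on ALA, with 1 at an unadjusted p below 0.05, and 1 rose on SFA. Among all genes, 2.02% rose on ALA and 3.15% on SFA. On each array 1 to 3 of the 10 genes were at or below 4.42, where a probe carries little information. The called gene was Cenpa, the centromeric H3 variant, which was higher by 1.83 (SE 0.26, adjusted p = 0.00911) on SFA and differed by 1.04 on ALA (adjusted p = 0.0863). Without ALA array 1 the ALA difference was 1.47 and passed (adjusted p = 0.0396), and without Control array 2 the SFA call was lost (adjusted p = 0.0861). H2ax, the variant phosphorylated at DNA breaks, differed by 0.53 on ALA and 0.90 on SFA, and H2az1, a variant found at promoters, by 0.24 on ALA and 0.57 on SFA, with none of the 4 differences passing.

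Of 17 measured histone chaperones, which carry new histones to DNA, 1 rose on ALA and 3 on SFA. Among all genes, 2.02% rose on ALA and 3.15% on SFA. Asf1b, which hands over H3 and H4 during replication, was at 6.04 and 6.14 in ALA pools, 6.51 and 6.42 in SFA pools and 4.49 and 5.25 in Control pools. It rose by 1.22 (SE 0.23, adjusted p = 0.0348) on ALA and by 1.59 (SE 0.23, adjusted p = 0.00976) on SFA. Hat1, which acetylates new H4, rose by 1.25 (SE 0.18, adjusted p = 0.00956) on SFA and differed by -0.02 on ALA. Chaf1b, a subunit of the assembly factor CAF-1, rose by 1.04 (SE 0.21, adjusted p = 0.0302) on SFA and differed by 0.65 on ALA (adjusted p = 0.171). The call of Asf1b on ALA was lost without either ALA array or Control array 1 (adjusted p 0.0932 to 0.203), that of Hat1 without Control array 2 (adjusted p = 0.0778), and that of Chaf1b without either SFA or either Control array (adjusted p 0.0692 to 0.155).

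Genes of DNA synthesis and of mitosis were also called higher, where 2.02% of all genes were on ALA and 3.15% on SFA. Of 35 measured replication genes, 2 rose on ALA and 15 on SFA, and none fell, with medians of 0.40 and 0.67. Rrm2, a subunit of the enzyme that makes deoxyribonucleotides, was at 6.39 and 7.28 in ALA pools, 8.02 and 7.90 in SFA pools and 4.70 and 5.21 in Control pools. It rose by 1.88 (SE 0.29, adjusted p = 0.0143) on ALA and by 3.01 (SE 0.29, adjusted p = 0.00237) on SFA. Pcna, the sliding clamp of the replication fork, rose by 0.93 (SE 0.18, adjusted p = 0.0242) on SFA and differed by 0.43 on ALA (adjusted p = 0.279). The ALA call of Rrm2 was lost without ALA array 2 or either Control array (adjusted p 0.0638 to 0.0921), and the SFA call of Pcna without either SFA or either Control array (adjusted p 0.0595 to 0.154).

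Of 22 measured mitosis genes, 11 rose on ALA and 19 on SFA, with medians of 1.32 and 1.89. Their mean log2 signal was 5.47 and 6.49 in ALA pools, 6.66 and 6.59 in SFA pools and 4.60 and 4.64 in Control pools. ALA array 1 had the lowest mean of the 4 diet arrays, as it also did for the mean over the 31 histone genes, at 5.95 beside 6.21 on ALA array 2, 6.39 and 6.36 in SFA pools and 5.67 and 5.73 in Control pools. Mki67, a marker of dividing cells, rose by 2.54 (SE 0.27, adjusted p = 0.00430) on ALA and by 3.14 (SE 0.27, adjusted p = 0.00168) on SFA. The part of cell division in the histone differences was not tested.

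**Figure D4:**
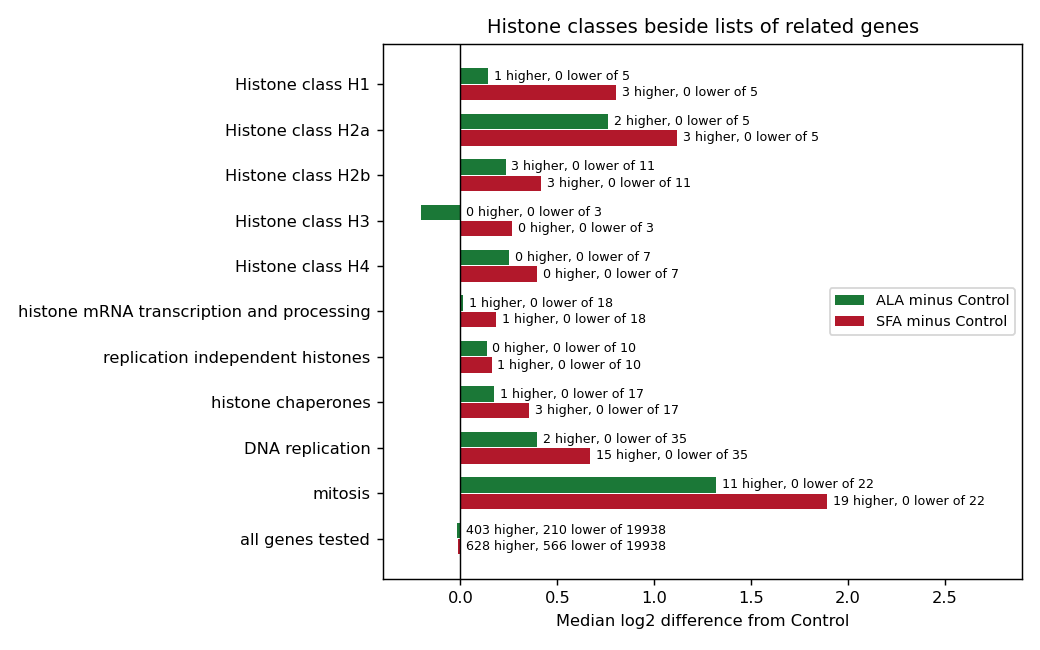
Median log2 difference from Control of each histone class and of lists of related genes, for ALA and SFA, with the numbers called higher and lower at an adjusted p below 0.05 beside each bar. Mitosis genes have the longest bars, at 1.32 and 1.89, and the bars of all genes lie near 0. The H3 bars rest on the 3 genes with a probe of their own, which gave little signal. The shared probes, among them those of H3 that were called higher on both diets, are not included.

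Markers of several other cells of the liver were also called higher, where 2.02% of all genes were on ALA and 3.15% on SFA. Of 15 stellate cell and fibroblast markers, 9 rose on ALA and 12 on SFA, and their mean signal was 7.35 and 7.52 in ALA pools, 7.51 and 7.47 in SFA pools and 6.46 and 6.18 in Control pools. Of 15 macrophage and Kupffer cell markers, 9 rose on ALA and 10 on SFA, with means between 7.94 and 8.35 in the ALA and SFA pools, against 7.15 and 7.05 in Control pools. Of 15 endothelial markers, 7 rose on ALA and 6 on SFA, and of 8 megakaryocyte and platelet markers 3 rose on ALA and 4 on SFA.

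Of 15 measured erythroid markers, 3 rose on ALA and 4 on SFA, while 1 fell on SFA. Their mean was 5.54 and 5.57 in ALA pools, 5.72 and 5.72 in SFA pools and 4.91 and 4.96 in Control pools. Of 13 granulocyte markers 0 rose on ALA, with 3 higher and 1 lower at an unadjusted p below 0.05, and 3 rose on SFA. Of 12 lymphoid and 6 bile duct markers, 0 were called on either diet (limma), with 1 lymphoid marker higher and 1 lower and 1 bile duct marker higher on ALA at an unadjusted p below 0.05. The 17 hepatocyte markers, which define the tissue, had means between 11.79 and 11.96 on all 6 arrays. Among them 1 was called on ALA and 0 on SFA, and Alb differed by -0.06 on ALA and -0.14 on SFA. For 13 of the 17, both SFA arrays lay below both Control arrays (29.0% of all genes), and for 2 above them (26.8%). For 15, both ALA arrays lay above both SFA arrays (24.3% of all genes), and for 0 below them (24.1%). The part of these cell types in the histone differences was not tested.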

How the data were processed

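Biotin-labelled total RNA from 6 pools of liver labelled as newborn was hybridised to 6 Affymetrix arrays. The authors deposited log2 signals (range 1.98 to 13.1, from which the scale was read), made with RMA and Partek 6.6, per the submitters' processing notes. No further scaling was applied. Histone names were matched to the platform annotation through RefSeq synonyms (GRCm38.p6) by Entrez identifier. Of 35556 probes, 21789 list 1 symbol, 1621 several and 12146 none. The brightest probe stood for a gene that had more than 1, which left 19938 genes, all tested with no signal minimum. Limma 3.58.1 in R 4.3.3 fitted a mean per diet to the 6 arrays (3 residual degrees of freedom per gene, moderated by empirical Bayes). P-values are two-sided, with Benjamini-Hochberg adjustment across all genes, and called means an adjusted p below 0.05. SE are from the same fit, and the number of arrays limits the precision. The fit was tested on simulated data. Per-array values are given for called members (up to 4 per class) and the brightest of each class. Other members complete the account. For other lists, up to 4 called genes and Slbp, Npat, H2ax, H2az1, Pcna, Mki67 and Alb may be named, whatever their values. The members, lists and rules were chosen with earlier results of these data known. Alternatives were scaling, signal minimum, empirical Bayes settings, probe choice, a replicate block, leaving out arrays, and 3 added after the data were seen, which test shared probes or all probes.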

Additional observations from a re-analysis of the deposited data

How the results depend on the processing

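No alternative turned the direction of a called member, and 87 of 102 refits of the 6 ALA calls and 132 of 151 refits of the 9 SFA calls kept the call. Several of these refits left a member's difference unchanged, so they are not independent checks. These were the mean of the probes of a gene, the empirical Bayes settings, and fits without arrays of the diet not compared. The ALA count ran from 1 to 6 when arrays were left out and was 0 with all probes tested, an alternative added after the data were seen. The SFA count ran from 4 to 9 when arrays were left out, and was 14 with median centring and 5 with all probes. H2bc4 was the 1 member called lower, on ALA with a trended prior, and on SFA with a trended prior or a signal minimum of 5 or 6. Calls higher were gained on SFA by H4c6 in 8 of 17 alternatives, H4c14 in 5 and H4c4 in 3, by H3c15 in 2 of 15 and H2bc1 in 1 of 15, and on ALA by H1f5 in 1 of 17. The F test count ran from 4 to 8 when arrays were left out. The median over the members was 0.41 and 0.69 on ALA with a signal minimum of 5 and 6, and on SFA 0.70 and 0.93 with those minimums and 0.57 with median centring, which fewer or rescaled genes give by construction; no H3 gene of its own probe was left under either minimum. For the shared probes, refits added after the data were seen and leaving out single arrays called 0 to 10 of 10 H3 probes on ALA and 9 to 10 on SFA, 0 to 7 of 7 H2b probes on either diet and 0 to 2 of 2 H2a probes on either. Other scalings and the block kept at least 6 of 7 H2b probes and all of H3 and H2a; with 75th percentile or median centring 2 of the 5 H4 probes were called higher on SFA. In ALA minus SFA, 1 member (H1f2) was called lower with a signal minimum of 5 or 6, median centring or a trended prior, and the median ran from -0.43 to -0.12 when arrays were left out. Median centring moved the median of all genes in SFA minus Control to 0.14, against -0.01 as reported. Over all genes, 613 were called on ALA, 1194 on SFA and 32 between the diets. A trended prior gave 946, 1643 and 266, a signal minimum of 6 gave 979, 1394 and 293, and a minimum of 5 gave 871, 1512 and 168. Between the diets 10 were called with only the 2 diets fitted and 2 with 75th percentile centring, quantile normalization or the block. Leaving out arrays gave 144 to 547, 210 to 825 and 0 to 18. The SFA split of 628 higher and 566 lower became 923 and 363 with 75th percentile centring, 1358 and 330 with median centring, 734 and 343 with quantile normalization and 768 and 411 with cyclic loess. Between ALA and SFA the split of 24 and 8 became 31 and 62 with median centring and 18 and 13 with cyclic loess, and the cause was not tested. The replicate numbers do not pair the samples, since deviations of equal numbers correlated at 0.0153, -0.0233 and -0.009 across genes. With replicate number as a block the histone counts were 6, 9, 0 and 9, as without it, and the calls over all genes were 555, 997 and 2. Of the genes named in other lists, the block ended the ALA call of Ccne2 (adjusted p = 0.0656) and of no other; 75th percentile centring and quantile normalization ended it too (adjusted p 0.0573 and 0.0530). The 2 arrays per diet were too few to test for a stray array, and with 1 array left in a group its spread is assumed to be that of the others.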
